A study of Mus musculus with 6 samples.

Results

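The genes described here are interferon-stimulated genes, a list of 39 mouse genes that cells switch on in response to interferon. They were chosen by name, with earlier results of these data known, so their shares beside all genes are a description. Each was found on the array through the RefSeq transcript that a probe is assigned to. Of the 39 genes, 36 had at least 1 probe (46 probes in all) among 20284 genes that could be named on the array. Mx1, Mx2 and Oas1b had no probe assigned to them here. A gene entered the test if every array of either age read its probe well above background, and 35 of the 36 genes passed, out of 14545 genes tested. Oas3 was well above background on 0 of 6 arrays, so it has no usable level. Of the 35 genes, 34 were well above background on all 6 arrays.

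Kidney RNA was profiled from male C57BL/6 mice, with 3 young samples (2 months) and 3 aged samples (20 months). C57BL/6 is a common inbred laboratory strain, and neither a treatment nor an engineered allele is named for either age. Each sample came from a separate RNA preparation of its age, and no source used here says whether each preparation was a different mouse. The p-values therefore measure the spread between these preparations, which may be partly technical. Each sample was labelled with Cy3 and read on 1 one-colour Agilent array, a glass slide area carrying short DNA probes for transcripts.

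All 6 arrays lay on 1 slide, with the young samples in its first row and the aged samples in its second. Age and slide row therefore cannot be told apart. The share of probes well above background was 55.2% to 72.8% on the young arrays and 46.2% to 62.8% on the aged arrays, and 0 member probes were saturated. All 12 listed markers of kidney epithelium were well above background on all 6 arrays, and 0 of them passed the test between ages. Values below are log2 signals relative to the 75th percentile of their own array, so 0 is the signal of a probe at that percentile. Probes differ in brightness for the same amount of RNA, so a level is compared only with the same probe on another array.

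Interferons are secreted proteins that bind receptors on neighbouring cells. Type I interferon activates a complex of transcription factors, with STAT2 and IRF9 among its subunits, that binds a DNA motif called the interferon-stimulated response element (ISRE). Interferon gamma acts mainly through another motif, the gamma-activated site (GAS). The induced genes include cytosolic sensors of viral RNA, the transcription factors of the pathway itself, proteins that block viral replication, GTPases that attack vacuoles holding microbes, and the ubiquitin-like protein ISG15. In the kidney such genes are known to be switched on during viral infection, lupus nephritis and other inflammation. Mice of the C57BL/6 strain are known to carry non-functional alleles of Mx1 and Oas1b.

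The promoter stretches below belong to some of these genes and are shown because they carry matches to the ISRE core, in both the antiviral and the GTPase subgroup. They come from RefSeq on GRCm38.p6, read 5′ to 3′ on the gene's own strand and end no later than the annotated start. Capitals mark matches to the ISRE core, which is GAAA, any 2 bases and GAAA again, or on the opposite strand TTTC, any 2 bases and TTTC.
Ifit1, chr19:34640760-34640838, plus strand: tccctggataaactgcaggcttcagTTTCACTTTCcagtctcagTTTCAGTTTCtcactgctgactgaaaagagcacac
Ifit3, chr19:34583348-34583441, plus strand: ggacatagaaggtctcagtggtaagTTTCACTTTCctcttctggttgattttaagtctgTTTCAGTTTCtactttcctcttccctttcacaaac
Rsad2, chr12:26456538-26456597, minus strand: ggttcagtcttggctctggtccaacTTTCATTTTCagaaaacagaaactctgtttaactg
Isg15, chr4:156200850-156200921, minus strand: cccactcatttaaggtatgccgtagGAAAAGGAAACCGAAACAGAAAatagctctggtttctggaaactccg
Bst2, chr8:71537562-71537627, minus strand: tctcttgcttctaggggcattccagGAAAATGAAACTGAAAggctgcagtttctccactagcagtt
Gbp2, chr3:142620579-142620638, plus strand: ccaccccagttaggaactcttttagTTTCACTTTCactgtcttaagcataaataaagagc
Gbp7, chr3:142530258-142530317, plus strand: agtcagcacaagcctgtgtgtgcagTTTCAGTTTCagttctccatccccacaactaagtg
Igtp, chr11:58199497-58199555, plus strand: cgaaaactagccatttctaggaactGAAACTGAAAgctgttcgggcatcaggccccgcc
Irgm2, chr11:58214888-58214947, plus strand: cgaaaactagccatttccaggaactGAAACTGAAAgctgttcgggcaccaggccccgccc

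Ifit1 and Ifit3 each held 2 separate cores, and Isg15 held 3 overlapping ones that begin 78, 72 and 66 bases before its start. The Igtp and Irgm2 stretches differed at 2 of 59 aligned bases. RefSeq promoter windows, from 250 bases before to 50 bases after a start, were given for 28 of the 39 genes (34 windows). The ISRE core was found on either strand in 17 of these 28 genes (18 windows, 52.9%), against 3.44% of all 32851 windows. The GAS core TTCNNNGAA, which is its own reverse complement, was found in 9 of the 28 genes (9 windows, 26.5%), against 8.30% of all windows. ISRE and GAS matches overlapped in 1 of the members' windows and in 24 windows in all. Ifi44 and Ifit2, which had the lowest log2 differences described below, had no ISRE core in their windows. A match is a run of letters in a window and was not measured as a binding site, since these arrays record RNA alone.

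Between 2 and 20 months, 0 of the 35 interferon-stimulated genes tested passed an adjusted p under 0.05 in either direction (limma, Benjamini-Hochberg over all 14545 genes). Over all genes tested, 3.37% passed, with 1.98% higher and 1.39% lower in aged kidney. At an unadjusted p under 0.05, 5 of the 35 genes (14.3%) were lower with age (Ifi44, Rsad2, Ifit3, Rtp4 and Ifit2) and 0 were higher, against 9.17% lower and 7.97% higher over all genes. In 5 of the 35 (14.3%: Ifi44, Rsad2, Ifit3, Rtp4 and Ifi35) every aged array was below every young array, against 11.5% of all genes, and in 0 was every aged array above every young array, against 10.3%. A log2 difference below 0, aged minus young, was seen in 27 of the 35 (77.1%), against 52.8% of all genes. The median difference of the 35 genes was -0.15, against -0.01 over all genes, and the range ran from -0.65 to 0.20. A difference of at least 2-fold was seen in 0 of the 35, against 2.41% of all genes. In whole-kidney RNA, fewer cells of a type and less RNA per cell cannot be told apart.

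The intervals show how large a difference these arrays leave possible. The 95% interval of the difference lay within 2-fold in both directions for 34 of the 35 genes, and for 13017 of all 14545 genes tested. Its upper bound was below a 1.5-fold rise for all 35, and for 12447 of all genes. In the direction of lower levels in aged kidney, the lower bound stayed above a 1.5-fold fall for 20 of the 35, and for 11745 of all genes. Standard errors ran from 0.10 to 0.27, and the median distance from an estimate to its interval's bound was 0.35.

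**Figure D1:**
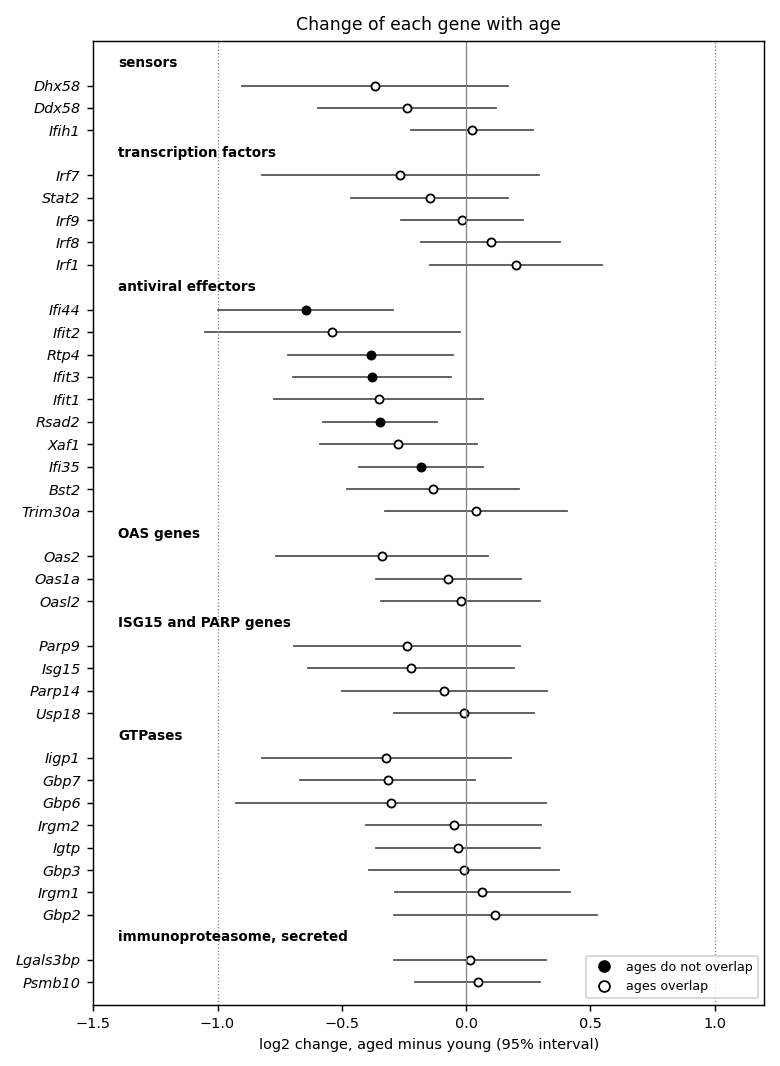
Each point is the log2 difference of 1 tested interferon-stimulated gene, aged minus young (3 arrays each), with its 95% interval from limma; filled points mark genes whose ages do not overlap, and dotted lines mark 2-fold. Ifi44 lies farthest below 0 at -0.65, Irf1 farthest above at 0.20, and no upper bound exceeds 0.55.

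The antiviral effectors held all 5 genes with an unadjusted p under 0.05 (50% of the 10 tested, against 9.17% lower over all genes). They also held all 5 whose ages did not overlap (50%, against 11.5% with aged lower over all genes). Of the 10 tested, 9 were below 0 (90%, against 52.8% of all genes), with a median difference of -0.35. None of the 10 passed the adjusted test, against 3.37% of all genes. Aged replicate 2 was the lowest aged array for 9 of the 10, so these genes are not 10 separate observations. Ifi44 encodes a cytoplasmic protein strongly induced by type I interferon. Its log2 signal was 1.67, 1.85 and 1.63 in young kidney and 1.33, 0.80 and 1.07 in aged kidney. Every aged array was below every young array, and aged replicate 2 was the lowest. The difference was -0.65 ± 0.15 (SE, n = 3 per age, 1.56-fold lower, 95% interval -0.997 to -0.29; limma, adjusted p = 0.0682). That call depended on the settings: the adjusted p was 0.0142 with limma's trended and robust variance, 0.0393 when only probes well above background on all 6 arrays were tested, 0.0481 after normexp background correction, and 0.0257 without aged replicate 1. Over all genes 4.29%, 4.29%, 2.11% and 6.33% passed under those settings, in that order, against 3.37% in the main fit. Across all alternatives the adjusted p of Ifi44 by limma ran from 0.0142 to 0.249, and its difference stayed below 0.

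Rsad2 encodes viperin, a radical SAM enzyme that makes a chain-terminating nucleotide against viral polymerases. Its signal was 2.74, 2.67 and 2.79 in young kidney and 2.37, 2.36 and 2.43 in aged kidney. The ages did not overlap, and the arrays of each age lay close together. The difference was -0.35 ± 0.10 (SE, n = 3 per age; limma, adjusted p = 0.122), and its 95% interval reached from -0.57 to -0.12.

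The Ifit proteins bind viral RNA and block its translation. Ifit3 read 1.98, 1.99 and 1.98 in young and 1.82, 1.35 and 1.64 in aged kidney. The young arrays were nearly equal and all aged arrays were lower, with the lowest value on aged replicate 2. Its difference was -0.38 ± 0.14 (SE, n = 3 per age; limma, adjusted p = 0.209). Ifit2, described because its unadjusted p was noticed after the values were seen, read -1.64, -1.50 and -1.38 in young and -1.51, -2.37 and -2.26 in aged kidney. Aged replicate 1 lay among the young arrays while the other two aged arrays were well below them. The Ifit2 difference was -0.54 ± 0.22 (SE, n = 3 per age; limma, unadjusted p = 0.0423, adjusted p = 0.270). Without aged replicate 1 it was -0.81 with an adjusted p of 0.0186 by limma. Under that omission 6.33% of all genes passed, against 3.37% with all arrays. Leaving out any other single array gave 0 calls among the 35 genes. Ifit1, also outside the naming rule, read -0.02, 0.41 and -0.04 in young and -0.02, -0.54 and -0.14 in aged kidney. Its ages overlapped, and the highest value was on young replicate 2 and the lowest on aged replicate 2. The difference was -0.35 ± 0.18 (SE, n = 3 per age; limma, adjusted p = 0.374).

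Rtp4 encodes an interferon-induced chaperone of membrane receptors that also restricts some viruses. Its signal was 2.05, 2.22 and 2.36 in young kidney and 2.03, 1.61 and 1.84 in aged kidney. The ages did not overlap, but the nearest arrays, young replicate 1 and aged replicate 1, were almost level. The difference was -0.38 ± 0.14 (SE, n = 3 per age; limma, unadjusted p = 0.0288, adjusted p = 0.225). Ifi35, a leucine-zipper protein that pairs with NMI, read 1.15, 1.19 and 1.36 in young and 1.03, 1.00 and 1.12 in aged kidney. The aged arrays were all lower by a narrow gap, and the difference was -0.18 ± 0.11 (SE, n = 3 per age; limma, adjusted p = 0.444). Among the other effectors, Xaf1, an antagonist of the apoptosis inhibitor XIAP, differed by -0.27 ± 0.14 (SE, n = 3 per age). Bst2, the tetherin that holds budding viruses at the cell surface, differed by -0.13 ± 0.15 (SE, n = 3 per age). Trim30a, a member of the TRIM family of ubiquitin ligases, was the only effector above 0, at 0.04 ± 0.16 (SE, n = 3 per age).

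**Figure D2:**
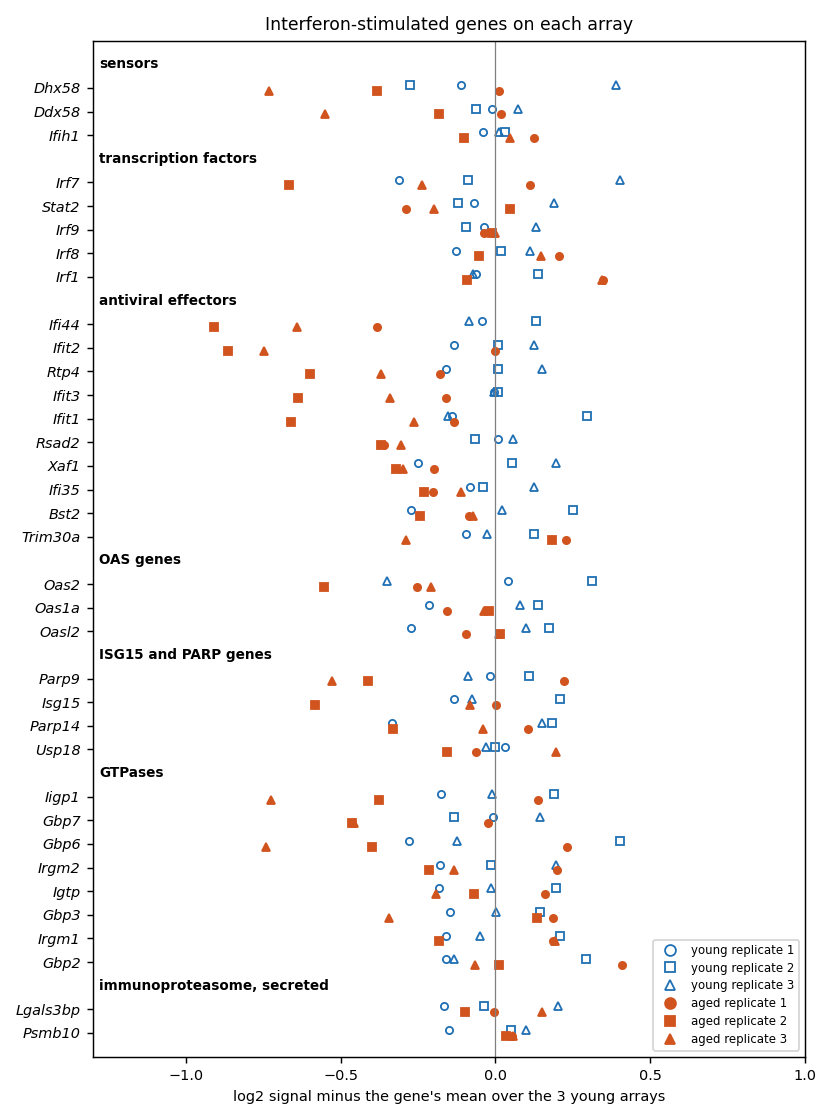
Log2 signal of each tested interferon-stimulated gene on each array, minus the gene's mean over the 3 young arrays; open blue symbols are young, filled orange symbols aged, and the symbol shape gives the replicate. The aged symbols of Ifi44, Rsad2, Ifit3, Rtp4 and Ifi35 lie wholly to the left of the young ones, while the ages overlap for the other tested genes.

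The sensors detect viral double-stranded or uncapped RNA in the cytoplasm, and those encoded by Ddx58 and Ifih1 signal through MAVS. Ddx58, which encodes RIG-I, read 0.83, 0.78 and 0.91 in young and 0.86, 0.66 and 0.29 in aged kidney. Aged replicate 3 was the lowest and aged replicate 1 lay among the young arrays. Its difference was -0.24 ± 0.15 (SE, n = 3 per age; limma, adjusted p = 0.487), and the second Ddx58 probe gave -0.45. Ifih1, which encodes MDA5, read 0.94, 1.01 and 0.99 in young and 1.10, 0.88 and 1.02 in aged kidney. The ages overlapped fully, at a difference of 0.02 ± 0.11 (SE, n = 3 per age; limma, adjusted p = 0.938). A dimmer Ifih1 probe gave -0.67, so the probes of this gene disagreed in direction, and that probe was well above background on only 1 aged array. Dhx58, which encodes the regulator LGP2, read -1.70, -1.87 and -1.20 in young and -1.57, -1.97 and -2.32 in aged kidney. The highest value was young and the lowest aged, but the ages overlapped, and the difference was -0.37 ± 0.23 (SE, n = 3 per age; limma, adjusted p = 0.474).

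The transcription factors that carry the interferon signal had a median difference of -0.02 over 5 genes. Of these, 3 were below 0 (60%, against 52.8% of all genes). Stat2, a subunit of the ISRE-binding complex, read 0.45, 0.40 and 0.71 in young and 0.23, 0.57 and 0.32 in aged kidney. Its ages overlapped, and the difference was -0.15 ± 0.14 (SE, n = 3 per age; limma, adjusted p = 0.641). Irf7, the factor that amplifies type I interferon production, read -2.06, -1.84 and -1.35 in young and -1.64, -2.42 and -1.99 in aged kidney. Each age spread over more than 0.70, with a difference of -0.26 ± 0.24 (SE, n = 3 per age; limma, adjusted p = 0.631). Irf1, which responds to interferon gamma, read -0.33, -0.12 and -0.34 in young and 0.08, -0.35 and 0.08 in aged kidney. Both higher aged arrays exceeded all young arrays, while aged replicate 2 was the lowest of the 6. The Irf1 difference, the highest of the 35 genes, was 0.20 ± 0.15 (SE, n = 3 per age; limma, adjusted p = 0.550). Irf8, a factor of macrophage and dendritic cell development, read 0.70, 0.84 and 0.94 in young and 1.03, 0.77 and 0.97 in aged kidney. Its ages overlapped at a difference of 0.10 ± 0.12 (SE, n = 3 per age; limma, adjusted p = 0.731). Irf9, the DNA-binding subunit of the complex, differed by -0.02 ± 0.11 (SE, n = 3 per age).

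The oligoadenylate synthetases make a short nucleotide signal that activates RNase L, which degrades RNA. Oas1a read -0.15, 0.21 and 0.15 in young and -0.09, 0.05 and 0.03 in aged kidney. All aged values lay inside the young range, and the difference was -0.07 ± 0.13 (SE, n = 3 per age; limma, adjusted p = 0.833), with the same -0.07 from a second probe. Oasl2, a related protein, read 0.11, 0.56 and 0.48 in young and 0.29, 0.40 and 0.40 in aged kidney. The aged arrays again lay inside the young range, at a difference of -0.02 ± 0.14 (SE, n = 3 per age; limma, adjusted p = 0.954). Oas2 read -4.63, -4.36 and -5.02 in young and -4.93, -5.23 and -4.88 in aged kidney. This probe was dim, being well above background on 3 young and 2 aged arrays, and its ages overlapped at -0.34 ± 0.18 (SE, n = 3 per age; limma, adjusted p = 0.401). The Oas1 genes are close copies of each other, so a probe may bind RNA from more than 1 of them.

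The ISG15 group joins the ubiquitin-like modifier Isg15, its protease Usp18 and the ADP-ribosyltransferases Parp9 and Parp14. All 4 differences were below 0, against 52.8% of all genes, with a median of -0.15. Isg15 read 0.70, 1.04 and 0.75 in young and 0.83, 0.25 and 0.75 in aged kidney. One aged array, replicate 2, was far below the others, and the remaining values overlapped. The difference was -0.22 ± 0.18 (SE, n = 3 per age; limma, adjusted p = 0.587), and the second probe gave -0.28. Usp18 read -0.40, -0.44 and -0.47 in young and -0.50, -0.59 and -0.24 in aged kidney. The highest and the lowest values were both aged, at a difference of -0.01 ± 0.12 (SE, n = 3 per age; limma, adjusted p = 0.981). Parp9 read 0.91, 1.04 and 0.84 in young and 1.15, 0.52 and 0.40 in aged kidney. Aged replicate 1 was above all young arrays and the other two aged arrays below them, at -0.24 ± 0.20 (SE, n = 3 per age; limma, adjusted p = 0.594). Parp14 read 0.67, 1.18 and 1.15 in young and 1.11, 0.67 and 0.96 in aged kidney. Its ages overlapped, at -0.09 ± 0.18 (SE, n = 3 per age; limma, adjusted p = 0.852).

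The interferon-inducible GTPases are mainly targets of interferon gamma and act on vacuoles that hold microbes. Their median difference was -0.04 over 8 genes, with 6 below 0 (75%, against 52.8% of all genes). Gbp7, a guanylate-binding protein, read -0.29, -0.42 and -0.14 in young and -0.30, -0.74 and -0.74 in aged kidney. Aged replicate 1 lay among the young arrays and the other two aged arrays below them, at -0.31 ± 0.15 (SE, n = 3 per age; limma, adjusted p = 0.343). Iigp1, an immunity-related GTPase that attacks the vacuole of Toxoplasma, read 1.92, 2.28 and 2.08 in young and 2.23, 1.72 and 1.37 in aged kidney. The aged arrays spread more widely than the young ones, and the difference was -0.32 ± 0.22 (SE, n = 3 per age; limma, adjusted p = 0.505), with -0.31 from a second probe. Gbp6 read -1.20, -0.52 and -1.04 in young and -0.69, -1.32 and -1.66 in aged kidney. It had the largest standard error of the 35 genes, at -0.30 ± 0.27 (SE, n = 3 per age; limma, adjusted p = 0.620), and its second probe gave -0.06. Gbp2 read -0.30, 0.15 and -0.27 in young and 0.27, -0.13 and -0.21 in aged kidney. Its ages overlapped, at 0.12 ± 0.18 (SE, n = 3 per age; limma, adjusted p = 0.792).

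Of the other GTPases, Gbp3 differed by -0.01 ± 0.16, Igtp by -0.03 ± 0.14, Irgm2 by -0.05 ± 0.15 and Irgm1 by 0.07 ± 0.15 (SE, n = 3 per age). These families hold close copies, so the signal of 1 probe may include a related gene. Igtp was printed at 10 spots per array, and the SD between its spots was 0.05 to 0.12. The SD of Igtp between arrays of 1 age was 0.19 in young and 0.18 in aged kidney, above the spread between spots. The remaining 2 genes encode an immunoproteasome subunit and a secreted protein. Psmb10, the catalytic subunit, read 1.85, 2.05 and 2.10 in young and 2.05, 2.03 and 2.05 in aged kidney. The aged arrays lay within the young range, at 0.05 ± 0.11 (SE, n = 3 per age; limma, adjusted p = 0.872). Lgals3bp, a secreted glycoprotein that binds galectin-3, read 2.84, 2.97 and 3.21 in young and 3.00, 2.91 and 3.16 in aged kidney. Its aged values also lay within the young range, at 0.02 ± 0.13 (SE, n = 3 per age; limma, adjusted p = 0.969).

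Many of the genes shared the same order over the arrays of an age. Young replicate 1 held the lowest young value for 22 of the 35 genes (62.9%), against 32.5% of all genes, and young replicate 2 the highest for 19 (54.3%), against 32.3%. Aged replicate 1 held the highest aged value for 23 of the 35 (65.7%), against 31.1%, and aged replicate 2 the lowest for 22 (62.9%), against 34.4%. Among the GTPases aged replicate 1 was the highest aged array for 7 of 8 and young replicate 1 the lowest young array for 7 of 8, but the lowest aged array was replicate 3 for 5 of 8 and replicate 2 for 3. Among the antiviral effectors aged replicate 2 was the lowest aged array for 9 of 10. The median of the 35 genes, each measured from its young mean, was -0.13, 0.05 and 0.06 in young and 0.00, -0.23 and -0.20 in aged kidney. Aged replicate 1 therefore lay inside the young range and the other two aged arrays below it. The effector median was -0.11, 0.03 and 0.04 in young and -0.17, -0.49 and -0.30 in aged kidney, with all aged arrays below all young ones. For the GTPases the medians were -0.17, 0.19 and -0.01 in young and 0.19, -0.20 and -0.27 in aged kidney, so the ages overlapped. Without aged replicate 1, 2 genes (Ifi44 and Ifit2) passed the adjusted test and 12 had an unadjusted p under 0.05 in the lower direction. Under that same omission 6.33% of all genes passed, against 3.37% with all arrays, and 13.6% had an unadjusted p under 0.05 in the lower direction. The 5 genes with an unadjusted p under 0.05 in the lower direction became 2 of the 35 without young replicate 2, against 6.89% of all genes. They became 4 without young replicate 1 (6.10% of all genes), 3 without young replicate 3 (7.97%) and 3 without aged replicate 3 (7.45%). Without aged replicate 2 they became 2 (6.67%), and 1 gene was also higher. There were 2 after median centring (7.32%), 3 after normexp (6.23%) and 3 of 36 with no filter on dim probes (5.11%). Means of a gene's tested probes gave 6 (9.66%), and replicate number as a block gave 4 (9.53%).

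**Figure D3:**
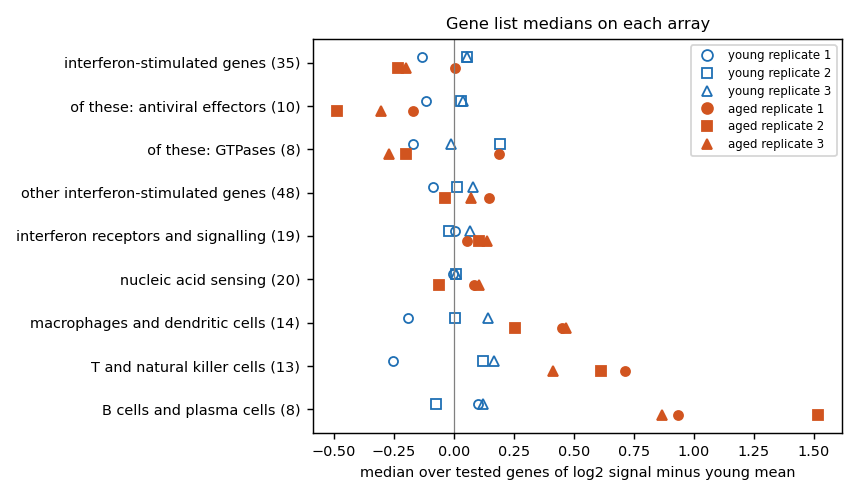
For each gene list, the median over its tested genes (number in brackets) of the log2 signal minus the gene's young mean, on each array; open blue symbols are young and filled orange symbols aged. The aged arrays lie at 0.00, -0.23 and -0.20 for the interferon-stimulated genes and at 0.71, 0.61 and 0.41 for T and natural killer cell markers.

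The rest of the interferon pathway was read from lists chosen in the same way, with earlier results of these data known. Of 19 interferon genes, 16 had a probe and 3 were tested. Ifng, which encodes interferon gamma, read -5.18, -4.76 and -5.17 in young and -4.25, -4.25 and -4.80 in aged kidney. Its signal was dim, with 3 young and 2 aged arrays well above background, and aged replicate 3 lay within the young range. The difference was 0.61 ± 0.19 (SE, n = 3 per age; limma, adjusted p = 0.154). Ifnl3 differed by -0.36 ± 0.18 and Ifna12 by -0.37 ± 0.22 (SE, n = 3 per age), and the Ifnb1 probe was well above background on 0 of 6 arrays. Of 19 receptor and signalling genes, all tested, 0 passed, and the median difference was 0.08. In this list Socs3, a feedback inhibitor of cytokine receptors, differed by 0.59 ± 0.15, Irf5 by -0.37 ± 0.13 and Il10rb, a subunit of the interferon lambda receptor, by 0.40 ± 0.14 (SE, n = 3 per age). Without aged replicate 1, Ifna12 (adjusted p = 0.0330) and Il10rb (adjusted p = 0.0422) passed limma's test, as did 6.33% of all genes. The Ifna12 probe was dim, with 3 young and 2 aged arrays well above background, so it entered the test through its young arrays alone. Socs3 passed with limma's trended and robust variance (adjusted p = 0.0447), as did 4.29% of all genes.

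Among 20 tested genes of nucleic acid sensing, 2 rose with age (10%, against 1.98% of all genes) and 0 fell (against 1.39%), with a median difference of 0.05. Tlr7, the endosomal receptor for single-stranded RNA, read -2.34, -2.10 and -2.23 in young and -1.48, -1.06 and -1.19 in aged kidney. All aged arrays were above all young ones, and it rose by 0.98 ± 0.14 (SE, n = 3 per age, 1.98-fold; limma, adjusted p = 0.0125). A second Tlr7 probe gave 0.29 with an adjusted p of 0.325 by limma, and the call of the brighter probe was lost without young replicate 1 (adjusted p = 0.0567) and without aged replicate 2 (adjusted p = 0.0555). Sting1, listed on the array as Tmem173, the adaptor that signals from the DNA sensor cGAS, read -0.12, -0.04 and 0.14 in young and 0.42, 0.68 and 0.61 in aged kidney. The ages did not overlap, and it rose by 0.58 ± 0.12 (SE, n = 3 per age; limma, adjusted p = 0.0476). This call stood in 6 of 17 alternatives, and the adjusted p reached 0.228 after normexp background correction. Adar, the RNA-editing enzyme, differed by 0.25 ± 0.10 (SE, n = 3 per age; limma, adjusted p = 0.270).

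A further list of 54 interferon-stimulated genes, 48 of them tested, had 1 gene that rose (2.08%, against 1.98% of all genes) and 0 that fell (against 1.39%). Of its differences 29 were above 0, as were 6863 of the 14545 over all genes, and the median was 0.05. Oas1c, a close copy of Oas1a, read -0.23, -0.50 and -0.11 in young and 1.07, 1.12 and 1.23 in aged kidney. The ages were far apart, and it rose by 1.42 ± 0.13 (SE, n = 3 per age, 2.68-fold; limma, adjusted p = 0.00296). Beside it, both Oas1a probes differed by -0.07. Cxcl10, a chemokine that attracts T cells, read -0.09, 0.22 and 0.48 in young and 0.82, 1.04 and 0.73 in aged kidney. All aged arrays were higher, at 0.66 ± 0.16 (SE, n = 3 per age; limma, adjusted p = 0.0807). It passed in 2 of 17 alternatives, with probes above background on all 6 arrays (adjusted p = 0.0475) and with trended and robust variance (adjusted p = 0.0209), and the adjusted p reached 0.278 with no filter on dim probes. Gbp5, a guanylate-binding protein linked to inflammasome activation, differed by 0.43 ± 0.14 (SE, n = 3 per age; limma, adjusted p = 0.158). The Gbp5 probe was dim, with 3 young and 2 aged arrays well above background. In this list 6 genes (12.5%) had an unadjusted p under 0.05 in the higher direction, against 7.97% of all genes, and 0 in the lower direction.

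**Figure D4:**
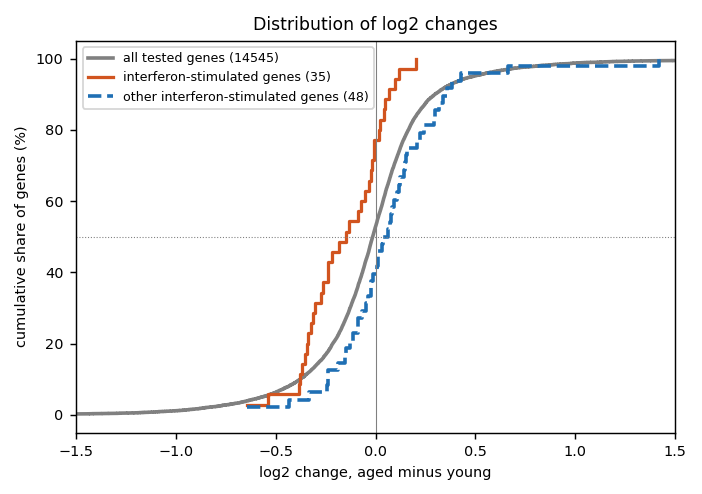
Cumulative share of genes (vertical axis, percent) by log2 difference, aged minus young (horizontal axis), for the 35 interferon-stimulated genes, the 48 tested genes of the further list and all 14545 tested genes. The curve of the 35 genes crosses 50% at -0.15, that of the further list at 0.05 and that of all genes at -0.01.

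Some markers of immune cells rose in the same aged samples, beside 1.98% of all genes that rose and 1.39% that fell. The marker lists were also chosen with earlier results of these data known. Of 14 tested macrophage and dendritic cell markers, 3 rose (Itgax, C1qc and Flt3), and the list median from the young mean was 0.45, 0.26 and 0.47 on the aged arrays against -0.19 to 0.14 on the young ones. Of 13 tested T and natural killer cell markers, 4 rose (Cd2, Cd3d, Cd5 and Lck), with aged medians of 0.71, 0.61 and 0.41. Of 8 tested B cell and plasma cell markers, 4 rose (Ms4a1, Jchain, Pou2af1 and Mzb1), with aged medians of 0.93, 1.52 and 0.87. Among 6 markers of plasmacytoid dendritic cells, the main producers of type I interferon, Spib rose and the median difference was 0.44. That median was 0.23 over the 5 markers well above background on all 6 arrays, and single differences ran from -0.14 (Siglech) to 1.15 (Spib). The 4 tested neutrophil markers had 0 calls and a median of 0.27, and the 8 endothelial markers 0 calls and a median of -0.04. No marker in these lists fell at an adjusted p under 0.05 by limma. Members of the same lists also lay below 0: Batf3, a factor of conventional dendritic cells, differed by -0.51 ± 0.17 (SE, n = 3 per age; limma, unadjusted p = 0.0170, adjusted p = 0.173), with every aged array below every young one. Gzma, a granule protease of cytotoxic lymphocytes, differed by -0.75 ± 0.34 (SE, n = 3 per age) with overlapping ages. Prf1, Cr2, Pax5, Cd4 and Siglech differed by -0.36, -0.36, -0.33, -0.24 and -0.14. The Pax5 probe was dim, with 3 young arrays and 1 aged array well above background. It entered the test through its young arrays alone. The aged array with the highest median of the 35 interferon-stimulated genes, replicate 1, also had the highest T and natural killer cell median, but replicate 2 had the highest B cell and plasma cell median. The part of these cells in the levels of the interferon-stimulated genes was not tested.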

How the data were processed

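Total kidney RNA from 3 young and 3 aged samples was hybridised to Agilent one-colour arrays (design 028005). Per the file headers, scans were read with Feature Extraction 11.5.1.1 (protocol GE1_1105_Oct12), and the deposited intensity is the processed signal, with background subtracted by the scanner software; array annotation names build mm9. The authors also deposited a log2 table. It matched log2 processed signal minus a constant of each array within 0.01 for 99.8% to 99.9% of probes. That constant differed from the array's 75th percentile over probes by 0.005 to 0.009.

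Control and outlier spots were left out, log2 intensity was centred on each array's 75th percentile over non-control spots, and spots of a probe were averaged. Probes were named through RefSeq accessions: 26762 of 55681 probes had 1 symbol, 0 several and 28919 none. A gene was its brightest probe. Young and aged arrays were compared with limma 3.58.1 (R 4.3.3), 2-sided, with Benjamini-Hochberg adjustment over 14545 genes and a threshold of 0.05. The fit was tested on simulated data. The number of arrays limits the precision.

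Values on all arrays are given for genes past the threshold or with ages that do not overlap, and for up to 4 genes per role with the smallest p; of each pathway list, for genes past the threshold, and up to 3 with the smallest p are named; 1 gene of the naming rule is not reported here. The members and lists were chosen with earlier results of these data known. Alternatives were normalisation, background correction, the dim-probe filter, outlier spots, probe choice, variance model, a replicate block and leaving out each array. Promoter windows came from RefSeq (GRCm38.p6).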

Additional observations from a re-analysis of the deposited data

How the results depend on the processing

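Over 17 alternatives the median difference of the interferon-stimulated genes ran from -0.24 (without young replicate 1) to -0.06 (without young replicate 3). Of 26 named genes, none of which had a call to lose, 19 kept their sign in every alternative. The other 7 (Gbp2, Ifih1, Lgals3bp, Oasl2, Parp14, Psmb10 and Usp18) changed sign in 21 values in all. The naming rule favoured genes with a small p or with ages that did not overlap. Where ages did not overlap, leaving out an array could not change the sign. The number past the threshold was 1 (Ifi44) with probes above background on all 6 arrays, with trended and robust variance and after normexp, and ran from 0 to 2 when each array was left out. Over all genes, 772 passed after median centring (397 higher, 375 lower), 307 after normexp (216 higher, 91 lower), 16 with no filter on dim probes, and 142 (without aged replicate 2) to 921 (without aged replicate 1; 344 higher, 577 lower) when each array was left out, against 490 (288 higher, 202 lower). After median centring 23 of the 35 genes were below 0, against 48.1% of all genes. The cause of these shifts was not tested. Same-numbered young and aged samples had correlations of deviations of 0.06, -0.09 and 0.10, so the numbers were not taken to pair them; with a replicate block 266 genes passed, 0 of them interferon-stimulated genes listed here, whose median was -0.15. Oas1c lost its call only with no filter on dim probes (adjusted p = 0.0642, limma), where Tlr7 was also lost (0.111). Oas3 and dim probes such as Oas2 have little signal over background.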

Other observations

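The ISRE core was also read across all promoters. Of 433 tested genes with the core in a RefSeq window, 17 were higher (3.93%) and 5 lower (1.15%) in aged kidney by limma, against 1.98% and 1.39% of all tested genes. Their median difference was 0.01. The largest rises, chosen after the values were seen, were those of Neurog2, Acsbg1 and Oas1c. Neurog2, a transcription factor of neural development, rose by 4.35 ± 0.40 (SE, n = 3 per age, limma, adjusted p = 0.00296), with 1 young and 3 aged arrays well above background. Neurog2 thus entered the test through its aged arrays alone, and the size of its rise rests on young values mostly not well above background. Acsbg1, an acyl-CoA synthetase, rose by 1.86 ± 0.12 (SE, n = 3 per age; limma, adjusted p = 0.000695). The other genes that rose were Fcrla, Eomes, Sirpb1b, Hrh1, Jaml, Stat4, Nlrp5, Arhgap15, Edn1, Agmo, Kif1a, Cybb, Pilrb2 and Ctss, by 0.64 to 1.38. The 5 genes that fell were Rnf182, Slc22a26, Cdca3, Slc13a4 and Spc25, by limma differences of -1.59, -1.10, -0.86, -0.85 and -0.70. Rnf182 was well above background on 3 young arrays and 1 aged array. It entered the test through its young arrays alone, so the size of its fall rests on aged values mostly not well above background. Among the 16 tested interferon-stimulated genes with the core in a window, 0 passed in either direction and the median was -0.10.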
